A study of Rattus norvegicus with 22 samples.

Results

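Rat microglia that had spent their last 3 days in serum (FCS 3d, 4 samples) were set against microglia that had spent only their last day in serum (FCS 1d, 5 samples), so 9 of the 22 samples of the series enter the comparison. The members were chosen by the sample titles alone, and no measured value was used. RNA sequencing measured gene expression in microglia from Sprague-Dawley rats at postnatal day 21, taken from whole brain without cerebellum by panning on an antibody to CD11b. All FCS cells were in culture for 8 days in TIC medium, a serum-free medium whose composition the labels used here do not give, and 10% fetal calf serum was added 3 days or 1 day before RNA was harvested. FCS 3d cells therefore had 5 serum-free days and then 3 days of serum, and FCS 1d cells had 7 serum-free days and then 1 day of serum, so longer serum and fewer serum-free days cannot be told apart. The 6 TIC samples, 8 days in the same medium with no serum, serve here only as a level beside the FCS groups. Samples of a group are described as biological replicates, with no statement of which came from common animals or preparations.

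Microglia are the resident macrophages of the brain. Behind an intact blood-brain barrier they meet little serum, while culture media commonly contain it, and serum carries growth factors, lipids, complement and carrier proteins. Macrophages answer such signals by entering the cell cycle and by changing the genes of complement, phagocytosis, lipid handling and inflammation. RNA from a culture dish is a mixture over all its cells, so fewer cells of a kind and less RNA per cell cannot be told apart.

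Values are FPKM (fragment counts scaled to transcript length and to the mapped fragments of the library) as the authors deposited them, for 17284 gene symbols. Tests covered 9691 genes, those that reached 1 FPKM in 3 or more of the 22 samples. Where a group has a value for each library, they run from replicate 1 to 4 in FCS 3d and from replicate 1 to 5 in FCS 1d. Differences are FCS 3d minus FCS 1d on the log2(FPKM + 1) scale, with their SE after the ± sign, and this scale understates the change of low genes. A gene is said to have risen or fallen, or is called, where limma's moderated test gave a Benjamini-Hochberg adjusted p under 0.05 over all tested genes, and every adjusted p below is of that kind unless stated. FPKM hold no read totals, so depth is unknown. An exact 0 in these files can be a failed estimate. The size of a difference is therefore uncertain where libraries were listed at 0, as for Ddit3, Cxcl3, Rad54l, Scd1, Fam213b, Ptprn, Sctr, Nos2 and Atp6v0d2. Summed FPKM lay between 381734 and 415767 in the FCS 3d libraries and between 377227 and 434577 in FCS 1d 1 to 4, whereas FCS 1d 5 stood apart from them at 672963. TIC 5 and 6 were also high, at 696038 and 696189, against 352011 to 403928 in TIC 1 to 4. The freshly isolated libraries had 564301 to 696703, so no FCS 3d library matches FCS 1d 5 in this trait. Tested genes listed at 0 numbered 485 to 1004 in FCS 3d and 353 to 974 in FCS 1d, and the libraries with many zeros were FCS 3d 1 and 3 and FCS 1d 1 and 2. The labels speak of 2 batches of library preparation and sequencing, each with every condition, without assigning samples to them, so neither trait is called a batch. The macrophage genes Aif1, Itgam, Csf1r, Cx3cr1, Ptprc, Cd68, Spi1 and Tyrobp, which check the labelled cell type, were all above 69 FPKM in every one of the 9 libraries, and none was called.

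After 3 days of serum, complement C1q genes, genes of DNA replication and mitosis, serine synthesis enzymes and the mannose receptor gene Mrc1 were higher than after 1 day. Some genes of inflammation (Il1b, Il1rn, Cxcl3, Irg1, Nos2), the protease genes Ctsk and Mmp12, the proton pump gene Atp6v0d2 and S100a6 were lower. The stress factor gene Ddit3 was also called lower, from values of 0 in every FCS 3d library that can be failed estimates. Tnf, not called, lay on the other side from Il1b without overlap, and a cytokine list had a median of log2 -0.07. In all, 105 of 9691 genes were called (1.08% of those tested). They divide into 43 higher (0.444%) and 62 lower (0.640%), and at an unadjusted p under 0.05 the numbers were 475 (4.90%) and 613 (6.33%). The FCS 3d and FCS 1d libraries did not overlap for 102 of the 105, while across all tested genes 4.04% were higher without overlap and 4.70% lower without overlap. The median gene stood at log2 -0.05. When any 1 of the 9 libraries was left out, 25 of the 105 (8 higher and 17 lower) kept their call in each of those 9 fits. Every called gene kept its sign in them, which the 102 without overlap could not fail to do. The number of calls also moved, to 30 without FCS 3d 2, 31 without FCS 3d 1, 37 without FCS 3d 4, 47 without FCS 1d 5, 50 without FCS 1d 3 and 55 without FCS 3d 3. It was 267 (131 higher and 136 lower) with the freshly isolated samples left out of the fit, and those 267 hold all 105. Fits within the divisions by zeros called 32 genes (few zeros) and 2 genes (many zeros), and a fit with the division as a term called 208.

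**Figure D1:**
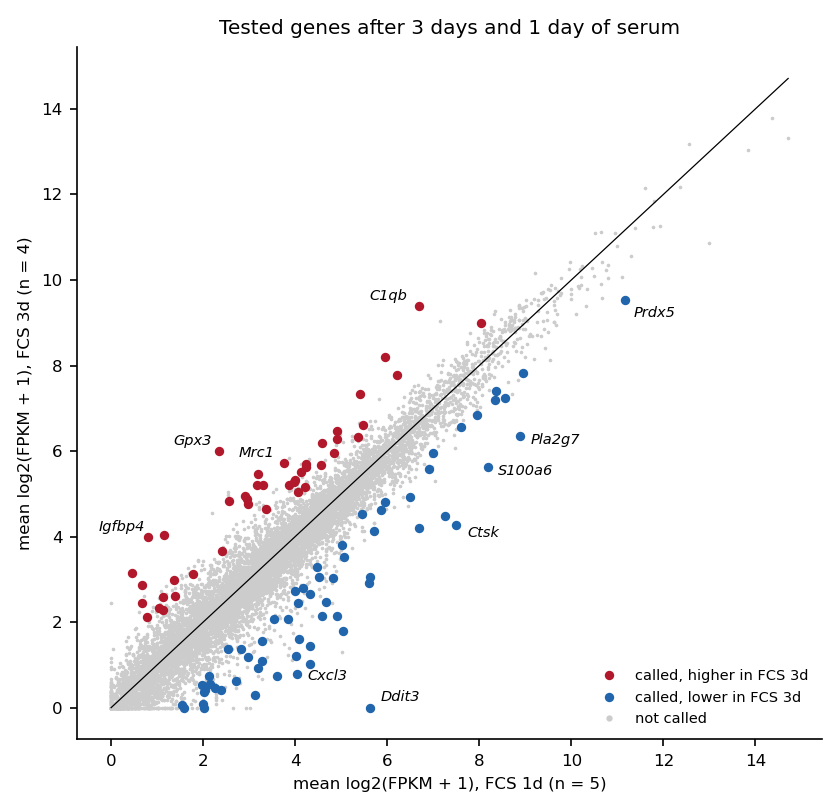
Mean log2(FPKM + 1) of each tested gene in FCS 3d (vertical axis, n = 4) against FCS 1d (horizontal axis, n = 5), with the line of equal level. Red points are the 43 called genes that were higher in FCS 3d, blue points the 62 that were lower, and grey points genes that were not called, and Ddit3 lies at 0 on the vertical axis because it was listed at 0 in all FCS 3d libraries.

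C1q is the recognition molecule of the classical complement pathway, and microglia are its main source in the brain. Its 3 chains, encoded by C1qa, C1qb and C1qc, neighbouring genes on chromosome 5 in the RefSeq annotation of assembly GRCr8, were all higher in FCS 3d. C1qb stood at 661, 779, 479 and 833 FPKM in FCS 3d, against 95.8, 71.00, 112, 152 and 97.2 FPKM in FCS 1d (log2 difference 2.71 ± 0.38, adjusted p = 0.00052). The lowest FCS 3d library had more than 3 times the level of the highest FCS 1d library, and the call held whichever library was left out. C1qc stood at 253, 346, 227 and 363 FPKM in FCS 3d, against 51.9, 24.2, 86.2, 111 and 70.3 FPKM in FCS 1d (log2 difference 2.23 ± 0.47, adjusted p = 0.021). C1qa stood at 238, 199, 266 and 185 FPKM in FCS 3d, against 66.7, 60.3, 114, 84.6 and 52.2 FPKM in FCS 1d (log2 difference 1.58 ± 0.37, adjusted p = 0.033). The groups did not overlap for either gene, and their calls were lost in 4 of 9 and 7 of 9 fits without 1 library, at adjusted p up to 0.08 (without FCS 3d 2) and 0.12 (without FCS 3d 1). In TIC the same genes lay at 7.01 to 26.04 FPKM (C1qa), 13.6 to 53.95 FPKM (C1qb) and 8.13 to 42.1 FPKM (C1qc).

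Cfp encodes properdin, which stabilises the C3 convertase of the alternative pathway. It stood at 50.99, 41.04, 34.4 and 47.03 FPKM in FCS 3d, against 5.16, 6.01, 2.84, 12.7 and 27.1 FPKM in FCS 1d (log2 difference 2.26 ± 0.49, adjusted p = 0.022). Its call was lost in 5 of 9 fits without 1 library, at adjusted p up to 0.093 (without FCS 3d 1). Of 20 tested genes of a complement list, these 4 were higher (against 0.444% of all tested genes) and none lower, and the list's median difference was log2 -0.17 against -0.05 over all genes. The component gene C3 averaged 20.8 ± 10.4 FPKM in FCS 3d and 16.9 ± 9.19 FPKM in FCS 1d (SD, n = 4 and 5; log2 difference 0.29 ± 0.44, adjusted p = 0.92). The receptor gene C3ar1 averaged 47.8 ± 5.15 FPKM in FCS 3d and 54.8 ± 17.01 FPKM in FCS 1d (log2 difference -0.15 ± 0.44, adjusted p = 0.97). Clu, a fluid-phase complement regulator, averaged 2.40 ± 1.86 FPKM in FCS 3d and 12.2 ± 11.1 FPKM in FCS 1d (log2 difference -1.80 ± 0.63, adjusted p = 0.2). Of the other 16 tested members, 2 lay above 0 and 14 below, none of them called.

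**Figure D2:**
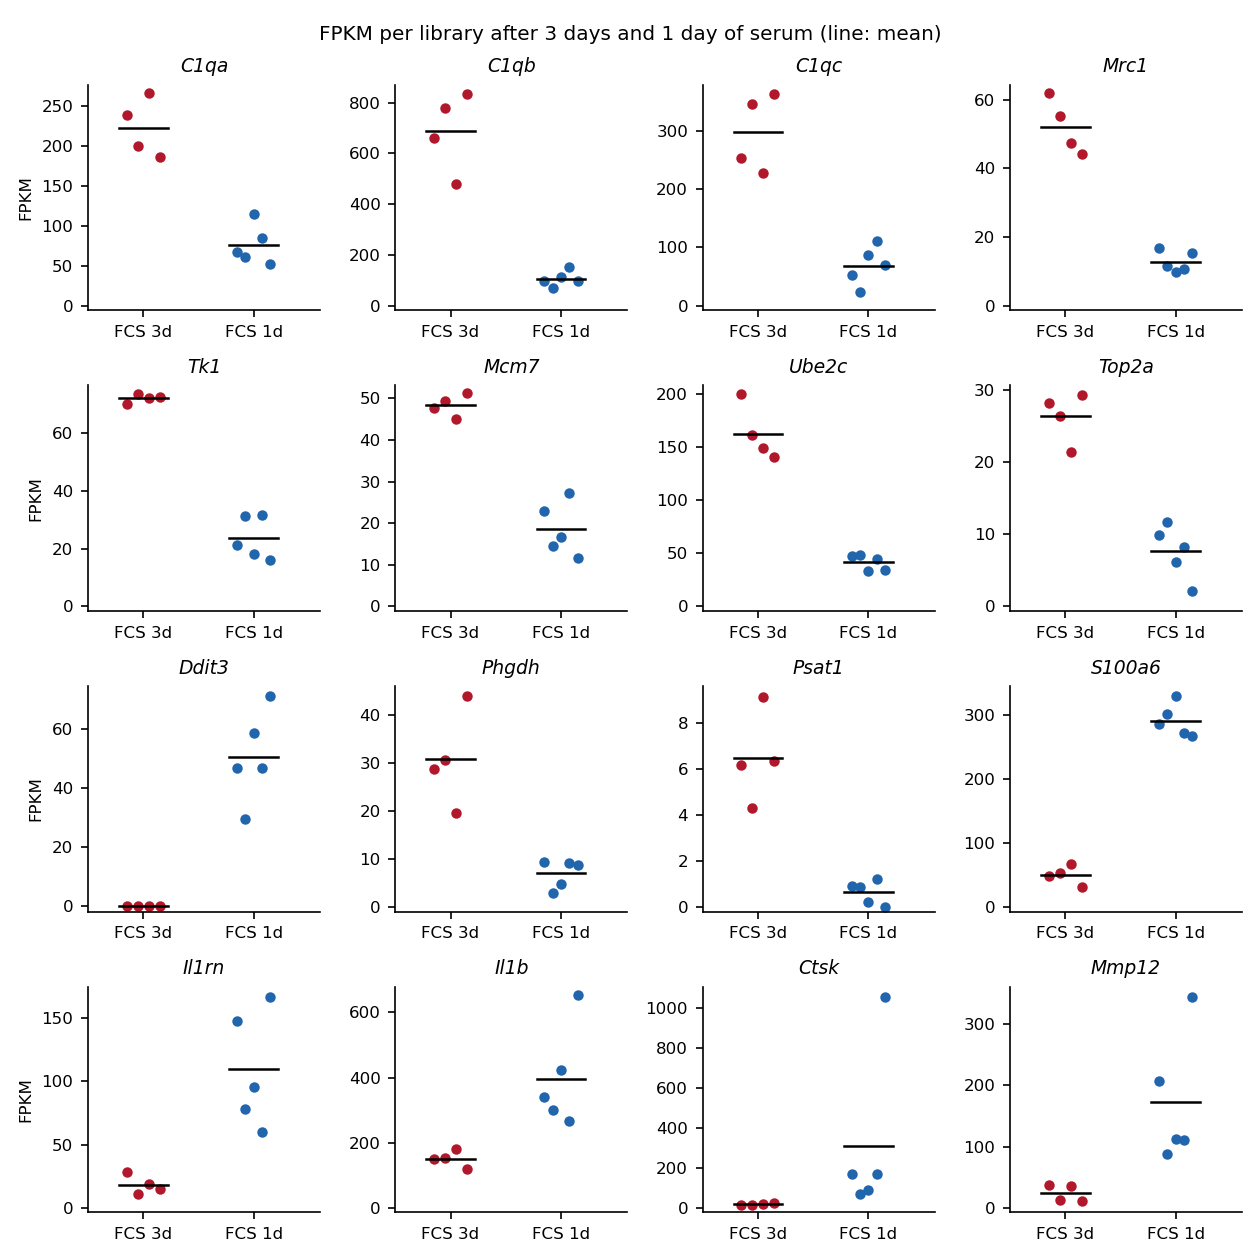
FPKM of 16 genes (vertical axes, each from 0) in the 4 FCS 3d libraries (red) and the 5 FCS 1d libraries (blue), each point a library and each line a group mean. The groups do not overlap for any of the 16 genes, Tk1 varies from 69.9 to 73.5 FPKM among the FCS 3d libraries, and the highest FCS 1d point of Ctsk, 1055 FPKM, is library FCS 1d 5.

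Genes of the cell cycle lay higher after 3 days of serum, with 10 of 94 past the test (against 0.444% of all tested genes called higher). DNA is copied in S phase by the MCM helicase and its partners from nucleotides that enzymes such as thymidine kinase supply, and cells then enter mitosis under cyclin B and leave it when the anaphase-promoting complex marks cyclin B for destruction. Of 40 tested members of the S phase and DNA replication list, 4 were called higher (Mcm6, Mcm7, Tk1 and Gins1, against 0.444% of all tested genes) and none lower. Of 54 tested members of the mitosis list, 6 were called higher (Ube2c, Top2a, Cdc20, Ccnb1, Racgap1 and Bub1b, against the same 0.444%) and none lower. All 94 tested members lay above 0 (against 43.6% of all tested genes). Of them, 73 had an unadjusted p under 0.05 in limma's test (4.90% of all tested genes were higher at that level). In 57 the libraries did not overlap (4.04% of all tested genes were higher without overlap). The median difference was log2 0.93 for S phase and 1.15 for mitosis. Both lists were chosen with earlier results of these data known, so their counts carry no test. Summed over both lists, FPKM were 2290 to 2937 in FCS 3d and 1092 to 1565 in FCS 1d, or 0.598 to 0.769% of each library's FPKM in FCS 3d and 0.162 to 0.401% in FCS 1d. The low end of FCS 1d is library FCS 1d 5, and the lowest of the other FCS 1d libraries is FCS 1d 3 at 0.26%. The 10 calls were 3 without FCS 3d 1, 2 or 4 or without FCS 1d 3 or 5, and 5 without FCS 3d 3, and without FCS 1d 5 the joint median was 0.91 against 1.04.

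Among the replication genes, Tk1, the S phase thymidine kinase, stood at 69.9, 73.5, 71.9 and 72.3 FPKM in FCS 3d, against 21.1, 31.4, 18.2, 31.6 and 16.2 FPKM in FCS 1d (log2 difference 1.61 ± 0.29, adjusted p = 0.005). Mcm7, a subunit of the replicative helicase, stood at 47.7, 49.5, 45.1 and 51.2 FPKM in FCS 3d, against 22.9, 14.5, 16.6, 27.3 and 11.6 FPKM in FCS 1d (log2 difference 1.39 ± 0.24, adjusted p = 0.0032). Both calls held whichever library was left out. Mcm6, another helicase subunit, stood at 46.2, 59.01, 40.7 and 55.8 FPKM in FCS 3d, against 25.6, 18.9, 18.3, 31.97 and 20.9 FPKM in FCS 1d (log2 difference 1.11 ± 0.24, adjusted p = 0.026). Gins1, part of the GINS complex that works with the helicase, stood at 31.5, 30.3, 26.4 and 26.3 FPKM in FCS 3d, against 7.44, 8.66, 7.28, 11.05 and 2.55 FPKM in FCS 1d (log2 difference 1.92 ± 0.47, adjusted p = 0.045). The calls of Mcm6 and Gins1 were lost in 6 of 9 and 8 of 9 fits without 1 library, at adjusted p up to 0.1 (without FCS 3d 2) and 0.14 (without FCS 3d 1). The sliding clamp gene Pcna averaged 139 ± 12.9 FPKM in FCS 3d and 97.4 ± 20.5 FPKM in FCS 1d (SD, n = 4 and 5; log2 difference 0.53 ± 0.24, adjusted p = 0.4). Mcm2 averaged 34.2 ± 5.67 FPKM in FCS 3d and 16.8 ± 4.17 FPKM in FCS 1d (log2 difference 1.00 ± 0.27, adjusted p = 0.076). Mcm5 averaged 37.1 ± 8.60 FPKM in FCS 3d and 16.3 ± 5.34 FPKM in FCS 1d (log2 difference 1.19 ± 0.32, adjusted p = 0.075).

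Among the mitosis genes, Ube2c, the ubiquitin-conjugating enzyme of the anaphase-promoting complex, stood at 200.0, 162, 149 and 141 FPKM in FCS 3d, against 47.5, 48.9, 33.7, 44.6 and 34.3 FPKM in FCS 1d (log2 difference 1.94 ± 0.33, adjusted p = 0.0033), a call that held whichever library was left out. Top2a, the topoisomerase that untangles sister chromatids, stood at 28.2, 26.5, 21.5 and 29.3 FPKM in FCS 3d, against 9.98, 11.8, 6.20, 8.23 and 2.10 FPKM in FCS 1d (log2 difference 1.80 ± 0.41, adjusted p = 0.033). Cdc20, the activator of the anaphase-promoting complex, stood at 41.5, 47.01, 33.4 and 59.1 FPKM in FCS 3d, against 21.5, 18.03, 15.8, 22.2 and 8.84 FPKM in FCS 1d (log2 difference 1.37 ± 0.32, adjusted p = 0.033). In each of these genes every FCS 3d library was above every FCS 1d library, and FCS 1d 5 was the lowest library for Top2a and Cdc20. Ccnb1 (cyclin B1) ranged over 33.1 to 46.6 FPKM in FCS 3d, against 8.26 to 25.5 FPKM in FCS 1d (log2 difference 1.34). Racgap1, a regulator of cytokinesis, ranged over 17.8 to 29.96 FPKM in FCS 3d, against 5.29 to 15.7 FPKM in FCS 1d (1.28). Bub1b, a spindle checkpoint kinase outside the naming rule, ranged over 10.2 to 13.9 FPKM in FCS 3d, against 2.39 to 5.74 FPKM in FCS 1d (1.27). Calls of Top2a, Cdc20, Ccnb1, Racgap1 and Bub1b were each lost in 6 to 8 of 9 fits without 1 library. Their adjusted p reached 0.12 (Top2a, without FCS 3d 1), 0.13 (Cdc20, without FCS 3d 4), 0.14 (Ccnb1, without FCS 3d 1), 0.16 (Racgap1, without FCS 3d 2) and 0.11 (Bub1b, without FCS 3d 4).

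Well-known proliferation genes that did not pass lay on the same side. The kinase gene Cdk1 averaged 101 ± 15.1 FPKM in FCS 3d and 42.6 ± 13.96 FPKM in FCS 1d (SD, n = 4 and 5; log2 difference 1.28 ± 0.33, adjusted p = 0.056). The proliferation marker Mki67 averaged 15.5 ± 4.37 FPKM in FCS 3d and 6.38 ± 2.88 FPKM in FCS 1d (log2 difference 1.27 ± 0.40, adjusted p = 0.14). Plk1, a mitotic kinase, averaged 51.4 ± 5.81 FPKM in FCS 3d and 17.7 ± 7.32 FPKM in FCS 1d (log2 difference 1.59 ± 0.40, adjusted p = 0.052). Over the alternatives tried, the adjusted p of Cdk1 ran from 0.011 to 0.85 and that of Mki67 from 0.053 to 0.86. Of 24 tested cell cycle inhibitors and G1 regulators, 1 was lower (against 0.640% of all tested genes), the stress-induced Gadd45b. It lay at 2.44 to 4.22 FPKM in FCS 3d, against 10.5 to 15.03 FPKM in FCS 1d (log2 difference -1.76 ± 0.38, adjusted p = 0.022). Its call was lost in 5 of 9 fits without 1 library, at adjusted p up to 0.086 (without FCS 3d 2). The inhibitor gene Cdkn1a (p21) averaged 22.2 ± 6.46 FPKM in FCS 3d and 43.1 ± 14.8 FPKM in FCS 1d (log2 difference -0.90 ± 0.31, adjusted p = 0.19). Cyclin D1 (Ccnd1) averaged 156 ± 35.7 FPKM in FCS 3d and 105 ± 22.2 FPKM in FCS 1d (log2 difference 0.57 ± 0.40, adjusted p = 0.68), with 130.5 to 374 FPKM in TIC.

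Other called genes of proliferating cells, outside both lists, were also higher, and all but Rad54l are named here after their values were seen. E2f7, a repressor among E2F factors, stood at 3.20, 4.54, 4.53 and 5.85 FPKM in FCS 3d, against 0.567, 0.527, 0.554, 1.76 and 0 FPKM in FCS 1d (log2 difference 1.77 ± 0.35, adjusted p = 0.014). Rad54l, a motor protein of homologous recombination, stood at 5.78, 9.61, 9.10 and 7.24 FPKM in FCS 3d, against 0, 0, 0, 3.88 and 0 FPKM in FCS 1d (log2 difference 2.68 ± 0.57, adjusted p = 0.021). Hmgb2 and Hmgn1 encode chromatin proteins with close copies elsewhere in the genome, so that their read assignment is uncertain. Hmgb2 ranged over 62.5 to 119 FPKM in FCS 3d, against 21.8 to 41.9 FPKM in FCS 1d (log2 difference 1.56). Hmgn1 ranged over 42.8 to 57.7 FPKM in FCS 3d, against 8.88 to 29.5 FPKM in FCS 1d (log2 difference 1.45). Exo1, Ska2, Stmn1, Tmpo, Tfdp1 and Hat1 were called with log2 differences of 1.28, 1.33, 1.14, 0.97, 0.96 and 1.09. None of these 10 genes kept its call in all 9 fits without 1 library, the highest adjusted p running from 0.062 (E2f7, without FCS 3d 4) to 0.16 (Hat1, without FCS 3d 1).

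The promoters of these genes hold different short elements. Mitosis genes are known to be held back outside division by a complex that sits on the cell cycle homology region (CHR), often near CCAAT boxes, whereas many S phase genes carry sites of E2F factors. Promoters were read from RefSeq (assembly GRCr8, from 250 bases before to 50 after the start of the gene), while the deposited values refer to build rn6. Each was searched on both strands for the CHR letters TTTGAA or TTTAAA, for the CCAAT box CCAAT, and for the E2F-like letters TTTGGCGC, TTTCGCGC, TTTCCCGC or TTTGCCGC. All 4 called mitosis genes with an entry (Ccnb1, Top2a, Cdc20 and Bub1b) held CHR letters and none held E2F-like letters. Of the 4 called replication genes, Mcm6, Mcm7 and Gins1 held E2F-like letters, Tk1 held none of the 3 elements, and none held CHR letters. Ube2c and Racgap1 had no entry. The following 6 show that contrast, 3 mitosis genes and then 3 replication genes, 5′ to 3′ with the searched letters in capitals. Letters of 2 motif matches overlap once in each of Mcm6, Mcm7 and Gins1.
Ccnb1 (chr2:33655176-33655475, strand -): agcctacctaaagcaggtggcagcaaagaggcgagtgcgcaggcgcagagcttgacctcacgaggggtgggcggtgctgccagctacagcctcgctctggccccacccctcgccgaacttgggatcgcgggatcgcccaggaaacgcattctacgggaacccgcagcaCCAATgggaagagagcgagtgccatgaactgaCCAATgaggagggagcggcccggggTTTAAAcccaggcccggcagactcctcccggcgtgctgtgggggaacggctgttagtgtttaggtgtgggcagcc
Top2a (chr10:84473044-84473343, strand -): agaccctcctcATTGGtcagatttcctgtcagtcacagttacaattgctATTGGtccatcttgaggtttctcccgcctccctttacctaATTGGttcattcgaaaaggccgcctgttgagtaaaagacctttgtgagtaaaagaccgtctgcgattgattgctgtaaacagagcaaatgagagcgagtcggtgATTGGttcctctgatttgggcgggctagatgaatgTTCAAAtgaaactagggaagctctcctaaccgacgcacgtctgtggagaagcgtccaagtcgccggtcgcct
Cdc20 (chr5:137255750-137256049, strand -): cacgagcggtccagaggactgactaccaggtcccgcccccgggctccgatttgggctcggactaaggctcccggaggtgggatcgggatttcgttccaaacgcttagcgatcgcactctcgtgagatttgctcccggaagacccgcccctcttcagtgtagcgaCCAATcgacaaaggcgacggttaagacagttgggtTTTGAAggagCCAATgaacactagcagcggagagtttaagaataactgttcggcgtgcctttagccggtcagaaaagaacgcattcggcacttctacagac
Mcm6 (chr13:42404303-42404602, strand -): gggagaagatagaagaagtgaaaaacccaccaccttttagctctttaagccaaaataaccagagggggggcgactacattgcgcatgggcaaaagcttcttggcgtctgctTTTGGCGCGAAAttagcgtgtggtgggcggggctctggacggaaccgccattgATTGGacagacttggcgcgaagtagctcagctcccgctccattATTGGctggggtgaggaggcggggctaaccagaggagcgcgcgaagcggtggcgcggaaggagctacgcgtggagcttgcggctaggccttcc
Mcm7 (chr12:22163129-22163428, strand -): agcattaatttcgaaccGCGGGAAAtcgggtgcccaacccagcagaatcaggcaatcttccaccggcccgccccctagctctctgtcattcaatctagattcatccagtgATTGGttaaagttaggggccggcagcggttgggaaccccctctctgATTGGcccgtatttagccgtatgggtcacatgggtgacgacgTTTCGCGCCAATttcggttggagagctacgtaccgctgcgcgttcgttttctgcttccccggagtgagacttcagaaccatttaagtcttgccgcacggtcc
Gins1 (chr3:160184670-160184969, strand +): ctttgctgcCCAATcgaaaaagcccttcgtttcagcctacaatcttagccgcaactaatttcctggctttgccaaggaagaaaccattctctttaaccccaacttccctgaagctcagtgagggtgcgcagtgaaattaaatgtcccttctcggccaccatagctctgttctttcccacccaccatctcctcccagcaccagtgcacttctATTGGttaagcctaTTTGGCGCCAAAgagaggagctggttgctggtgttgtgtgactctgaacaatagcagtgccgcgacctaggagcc
The same contrast held beyond the called genes. CHR letters were in 41 of 48 promoters of tested mitosis members (85.4%), in 8 of 35 of tested replication members (22.9%), and in 18.7% of the 7838 promoters of tested genes. E2F-like letters were in 1 of 48 mitosis promoters (2.08%), 16 of 35 replication promoters (45.7%) and 4.18% of all tested. CCAAT boxes were in 36 of 48 (75%), 21 of 35 (60%) and 38.1% in the same order. Over all 33469 promoters of the table the shares were 28.3% for CHR, 2.14% for E2F-like letters and 37.5% for CCAAT boxes. A match is a run of letters and not a shown binding site, and these shares describe the genes and not the change with serum.

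**Figure D3:**
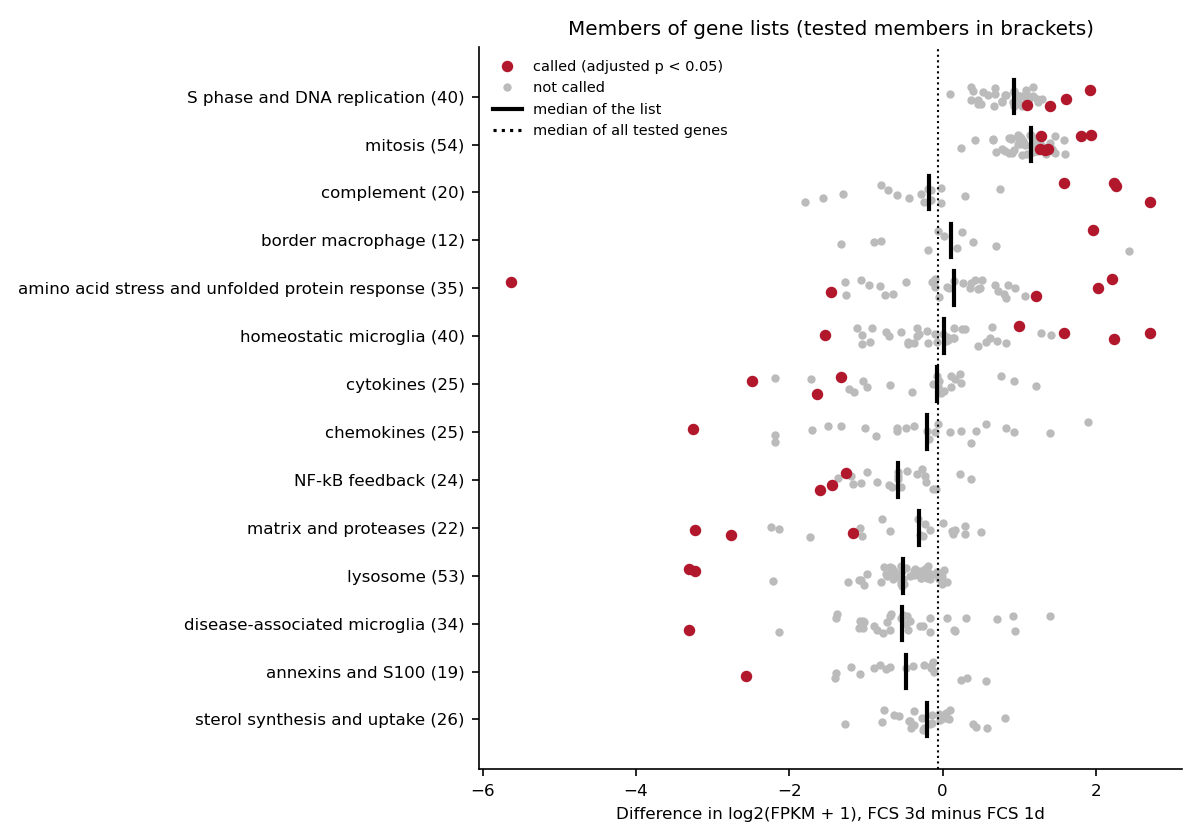
Difference in log2(FPKM + 1), FCS 3d minus FCS 1d (horizontal axis), of each tested member of 14 gene lists (rows, with the number of tested members), red where called and grey where not, with a bar at the median of each list and a dotted line at the median of all tested genes. All members of the S phase and mitosis rows lie right of 0, with medians of 0.93 and 1.15, and the medians of the NF-kB feedback, lysosome, disease-associated and annexin rows lie left of the median of all genes, -0.05.

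Serine is made from a glycolytic intermediate by the enzymes Phgdh, Psat1 and Psph in turn. The first and the second of them were higher in FCS 3d. Phgdh stood at 28.9, 30.7, 19.7 and 44.05 FPKM in FCS 3d, against 9.53, 2.96, 4.92, 9.29 and 8.70 FPKM in FCS 1d (log2 difference 2.02 ± 0.34, adjusted p = 0.0032). Psat1 stood at 6.18, 4.33, 9.16 and 6.38 FPKM in FCS 3d, against 0.938, 0.873, 0.229, 1.21 and 0 FPKM in FCS 1d (log2 difference 2.21 ± 0.32, adjusted p = 0.00072). Neither gene's groups overlapped, and both calls held whichever library was left out. In TIC, Phgdh lay at 16.5 to 31.9 FPKM with a median of 20.3 FPKM and Psat1 at 1.82 to 6.16 FPKM with a median of 2.62 FPKM, between the FCS group means in both cases. Psph averaged 14.8 ± 4.22 FPKM in FCS 3d and 10.4 ± 4.52 FPKM in FCS 1d (SD, n = 4 and 5; log2 difference 0.52 ± 0.40, adjusted p = 0.73). The mitochondrial one-carbon enzyme gene Shmt2 averaged 40.5 ± 9.93 FPKM in FCS 3d and 21.9 ± 1.86 FPKM in FCS 1d (log2 difference 0.83 ± 0.40, adjusted p = 0.44). Its partner Mthfd2 averaged 22.8 ± 4.26 FPKM in FCS 3d and 12.2 ± 2.56 FPKM in FCS 1d (log2 difference 0.85 ± 0.27, adjusted p = 0.15). Neither was called, and the groups overlapped for neither.

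These genes belong to a list of amino acid stress and unfolded protein genes, many of them targets of the factor ATF4, whose members did not go one way. Of 35 tested, 3 were higher and 2 lower (against 0.444% and 0.640% of all tested genes), with a median of log2 0.15. The third riser was the cationic amino acid transporter Slc7a1, at 5.16, 4.20, 6.92 and 4.39 FPKM in FCS 3d, against 1.15, 1.61, 2.12, 1.79 and 1.45 FPKM in FCS 1d (log2 difference 1.22 ± 0.30, adjusted p = 0.046), a call lost in each of the 9 fits without 1 library (adjusted p up to 0.14, without FCS 3d 3). Ddit3, the stress-induced transcription factor CHOP, was listed at 0 in all 4 FCS 3d libraries, against 46.5, 29.3, 58.6, 46.8 and 70.9 FPKM in FCS 1d (adjusted p = 0.0017), and its call held whichever library was left out. An exact 0 in these files can be a failed estimate, so no fold is given. TIC held Ddit3 at 107 to 214 FPKM with a median of 136 FPKM. Slc7a11, the cystine transporter, fell to 1.01, 0.0521, 0.762 and 0.175 FPKM in FCS 3d, against 5.79, 2.60, 2.26, 2.33 and 2.65 FPKM in FCS 1d (log2 difference -1.45 ± 0.31, adjusted p = 0.019; lost in 2 of 9 fits, at adjusted p up to 0.093 without FCS 3d 2). Atf4 itself averaged 107 ± 15.9 FPKM in FCS 3d and 79.1 ± 20.1 FPKM in FCS 1d (log2 difference 0.46 ± 0.24, adjusted p = 0.51). Its target Asns averaged 10.3 ± 3.08 FPKM in FCS 3d and 7.45 ± 2.33 FPKM in FCS 1d (log2 difference 0.42 ± 0.35, adjusted p = 0.76). Trib3 averaged 2.56 ± 2.63 FPKM in FCS 3d and 5.59 ± 4.52 FPKM in FCS 1d (log2 difference -0.81 ± 0.67, adjusted p = 0.76).

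**Figure D4:**
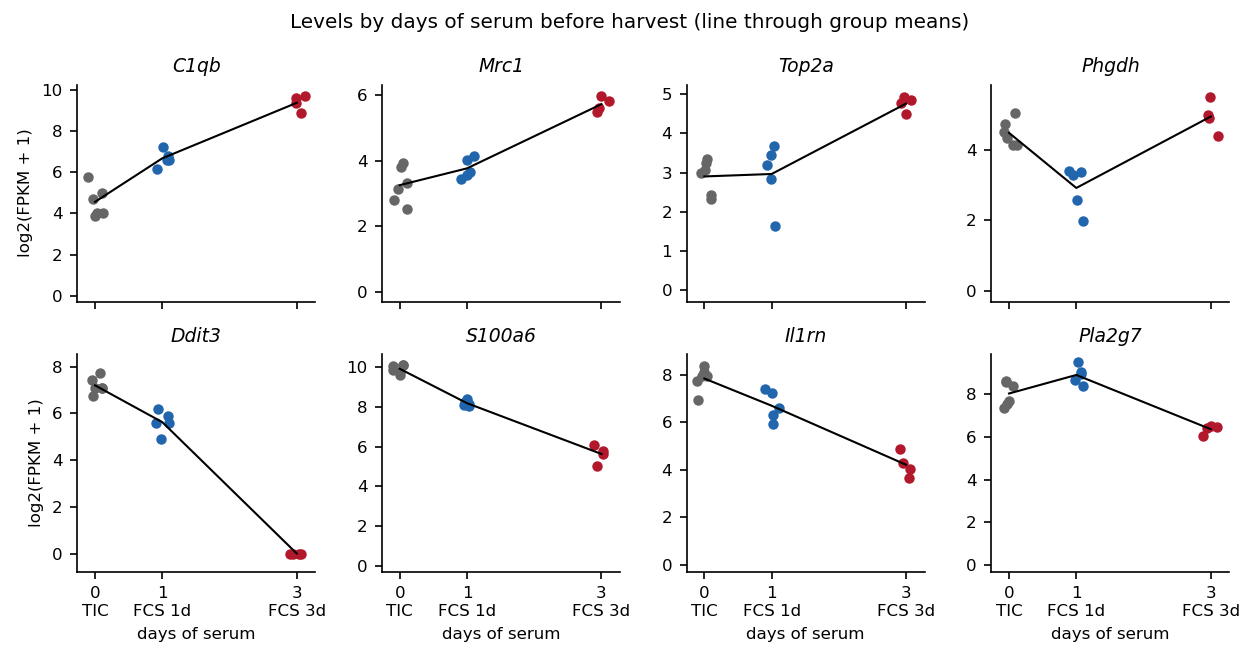
log2(FPKM + 1) (vertical axis) by days of serum before harvest (horizontal axis), for TIC (0 days, grey, n = 6), FCS 1d (blue, n = 5) and FCS 3d (red, n = 4), each point a library and the line joining group means. C1qb, Mrc1 and Top2a are highest at 3 days, Phgdh is lowest at 1 day, Ddit3, S100a6 and Il1rn are lowest at 3 days with TIC highest, and Pla2g7 is highest at 1 day.

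Several genes of inflammation were lower after 3 days of serum. Il1rn, the interleukin-1 receptor antagonist, stood at 28.1, 11.4, 18.6 and 15.2 FPKM in FCS 3d, against 148, 77.9, 95.8, 59.7 and 167 FPKM in FCS 1d (log2 difference -2.49 ± 0.43, adjusted p = 0.0037). Cxcl3, a chemokine that draws neutrophils, stood at 0, 0, 2.51 and 1.54 FPKM in FCS 3d, against 22.7, 7.91, 14.5, 16.1 and 20.7 FPKM in FCS 1d (log2 difference -3.25 ± 0.37, adjusted p = 6e-05). Irg1, the enzyme that makes itaconate in activated macrophages, stood at 2.51, 1.08, 0.791 and 1.21 FPKM in FCS 3d, against 17.8, 16.6, 11.3, 8.97 and 26.8 FPKM in FCS 1d (log2 difference -2.81 ± 0.33, adjusted p = 6e-05). The groups did not overlap for these 3 genes, and their calls held whichever library was left out. The cytokine Il1b stood at 149, 153, 181 and 120.0 FPKM in FCS 3d, against 341, 301, 423, 267 and 652 FPKM in FCS 1d (log2 difference -1.33 ± 0.30, adjusted p = 0.031). The inducible nitric oxide synthase Nos2 stood at 0, 0.224, 0.968 and 0.274 FPKM in FCS 3d, against 2.89, 3.94, 5.03, 2.10 and 2.26 FPKM in FCS 1d (log2 difference -1.63 ± 0.34, adjusted p = 0.017). Tnfsf15, a cytokine of the TNF family outside the naming rule, ranged over 0 to 2.74 FPKM in FCS 3d, against 4.54 to 15.1 FPKM in FCS 1d (log2 difference -2.20 ± 0.54, adjusted p = 0.046). Calls of Il1b, Nos2 and Tnfsf15 were lost in 6 of 9, 4 of 9 and 8 of 9 fits without 1 library, at adjusted p up to 0.12 (without FCS 3d 4), 0.093 (without FCS 3d 1) and 0.17 (without FCS 3d 3).

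Of 25 tested cytokine and inflammasome genes, 3 were lower (Il1rn, Nos2 and Il1b; against 0.640% of all tested genes) and none higher, with a median of log2 -0.07 against -0.05 over all genes. Of 25 tested chemokine genes, 1 was lower (Cxcl3, against the same 0.640%) and none higher, with a median of -0.20. Tnf averaged 34.3 ± 13.1 FPKM in FCS 3d and 14.2 ± 5.44 FPKM in FCS 1d (SD, n = 4 and 5; log2 difference 1.22 ± 0.48, adjusted p = 0.27), without overlap and on the other side from Il1b. The monocyte chemokine Ccl2 averaged 878 ± 412 FPKM in FCS 3d and 964 ± 486 FPKM in FCS 1d (log2 difference -0.10 ± 0.83, adjusted p = 1). In TIC, Il1rn lay at 119 to 329.6 FPKM, a range above that of FCS 3d that overlaps FCS 1d. Cxcl3 lay at 2.12 to 5.79 FPKM in TIC, a range below that of FCS 1d that overlaps FCS 3d. Il1b lay at 239.9 to 554 FPKM in TIC, a range that holds the mean of FCS 1d and not that of FCS 3d.

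NF-kB drives many inflammatory genes together with its own inhibitors and survival factors. Of 24 tested genes of an NF-kB feedback list, 3 were lower (against 0.640% of all tested genes) and none higher. In it 22 of 24 lay below 0 (against 55.4% of all tested genes), with a median of log2 -0.58. Without FCS 1d 5 the median was -0.44 and no member was called. Traf1, an adaptor of TNF receptors, stood at 4.70, 4.97, 2.66 and 6.25 FPKM in FCS 3d, against 15.98, 16.7, 17.96, 11.9 and 16.4 FPKM in FCS 1d (log2 difference -1.60 ± 0.36, adjusted p = 0.029). Cflar (c-FLIP), which restrains caspase-8, ranged over 6.05 to 8.50 FPKM in FCS 3d, against 14.03 to 28.9 FPKM in FCS 1d (log2 difference -1.45 ± 0.33, adjusted p = 0.033). Birc3, a ubiquitin ligase of the inhibitor of apoptosis family, ranged over 4.95 to 6.47 FPKM in FCS 3d, against 10.2 to 22.3 FPKM in FCS 1d (log2 difference -1.25 ± 0.30, adjusted p = 0.043). Each of these calls was lost in 8 of 9 fits without 1 library, at adjusted p up to 0.1 (without FCS 3d 3), 0.13 (without FCS 3d 1) and 0.13 (without FCS 1d 5). Nfkbia, the classical inhibitor of NF-kB, averaged 118 ± 18.5 FPKM in FCS 3d and 192 ± 69.4 FPKM in FCS 1d (log2 difference -0.66 ± 0.32, adjusted p = 0.45), without overlap and not called. In the interferon response list 1 of 45 was lower (against 0.640% of all tested genes) and none higher, with a median of -0.20. The called member was Ifit3, at 5.32 to 9.20 FPKM in FCS 3d, against 14.1 to 53.4 FPKM in FCS 1d (log2 difference -1.78 ± 0.42, adjusted p = 0.037). Its call was lost in 8 of 9 fits, at adjusted p up to 0.14 (without FCS 3d 1).

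Cathepsin K, the d2 subunit of the vacuolar proton pump and tartrate-resistant acid phosphatase are best known from osteoclasts, macrophage relatives that dissolve bone. Ctsk stood at 16.5, 13.1, 21.5 and 24.2 FPKM in FCS 3d, against 171, 70.2, 88.96, 169 and 1055 FPKM in FCS 1d (log2 difference -3.23 ± 0.73, adjusted p = 0.029). Atp6v0d2 stood at 2.75, 0.7096, 0 and 1.59 FPKM in FCS 3d, against 13.2, 12.2, 8.94, 11.7 and 131 FPKM in FCS 1d (log2 difference -3.30 ± 0.73, adjusted p = 0.028). FCS 1d 5 was far above the other FCS 1d libraries for both, and each FCS 3d library was below each FCS 1d library. Without FCS 1d 5 the log2 differences were -2.60 for Ctsk (adjusted p = 0.087) and -2.62 for Atp6v0d2 (adjusted p = 0.074). Their calls were lost in 6 of 9 and 5 of 9 fits without 1 library, at adjusted p up to 0.1 (without FCS 3d 1) and 0.094 (without FCS 3d 3). Acp5, the acid phosphatase, averaged 2.44 ± 0.995 FPKM in FCS 3d and 19.1 ± 18.6 FPKM in FCS 1d (SD, n = 4 and 5; log2 difference -2.22 ± 0.59, adjusted p = 0.067), without overlap and not called. Car2, a carbonic anhydrase of acid-secreting cells named here after its values were seen, ranged over 35.96 to 60.4 FPKM in FCS 3d, against 74.7 to 208 FPKM in FCS 1d (log2 difference -1.32 ± 0.32, adjusted p = 0.041; lost in 8 of 9 fits, at adjusted p up to 0.14 without FCS 3d 4).

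Mmp12, the macrophage elastase, stood at 38.1, 12.9, 35.96 and 11.3 FPKM in FCS 3d, against 208, 87.3, 112, 111 and 344 FPKM in FCS 1d (log2 difference -2.77 ± 0.56, adjusted p = 0.015), a call lost in 3 of 9 fits without 1 library (adjusted p up to 0.079, without FCS 3d 2, and 0.05 without FCS 1d 5). In the matrix and protease list 3 of 22 tested genes were lower, among them Ctsk and Mmp12 (against 0.640% of all tested genes), and none higher, with a median of log2 -0.30. Of 53 tested lysosomal genes 2 were lower (Ctsk and Atp6v0d2; against 0.640% of all tested genes) and none higher. The list's median was -0.51, with 51 of 53 members below 0 (against 55.4% of all tested genes), and without FCS 1d 5 the median was -0.26, with 8 of 53 above 0 and no member called. Ctsl (cathepsin L) averaged 1084 ± 109 FPKM in FCS 3d and 2236 ± 528 FPKM in FCS 1d (log2 difference -1.02 ± 0.27, adjusted p = 0.061). Ctsd (cathepsin D) averaged 3710.0 ± 269.9 FPKM in FCS 3d and 4001 ± 2601 FPKM in FCS 1d (log2 difference 0.06 ± 0.36, adjusted p = 0.99).

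Macrophage surface receptors moved in both directions. Mrc1, the mannose receptor that marks macrophages at brain borders, stood at 61.8, 55.2, 47.3 and 44.04 FPKM in FCS 3d, against 16.8, 11.5, 9.72, 10.7 and 15.3 FPKM in FCS 1d (log2 difference 1.96 ± 0.28, adjusted p = 0.00052), a call that held whichever library was left out, with 4.79 to 14.2 FPKM in TIC. Lyve1, the hyaluronan receptor of the same cells, averaged 31.9 ± 10.6 FPKM in FCS 3d and 5.29 ± 2.46 FPKM in FCS 1d (SD, n = 4 and 5; log2 difference 2.43 ± 0.62, adjusted p = 0.055) without overlap and was not called, its adjusted p over the alternatives running from 0.0062 to 0.49. Mrc1 was the only 1 of 12 tested border macrophage genes to be called, against 1.08% of all tested genes. The chemokine Pf4 averaged 329.8 ± 124 FPKM in FCS 3d and 318 ± 80.2 FPKM in FCS 1d (log2 difference 0.02 ± 0.54, adjusted p = 1). The list's summed FPKM were 678 to 936 in FCS 3d and 523 to 898 in FCS 1d, and what part such cells had in the Mrc1 difference was not tested. Tlr5, the receptor for flagellin, chosen after its values were seen, stood at 9.28, 6.42, 4.78 and 7.93 FPKM in FCS 3d, against 1.35, 2.09, 1.87, 2.43 and 0.615 FPKM in FCS 1d (log2 difference 1.62 ± 0.32, adjusted p = 0.013; lost in 2 of 9 fits at adjusted p up to 0.066 without FCS 3d 1).

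On the lower side, Olr1, a scavenger receptor for oxidised lipoprotein, stood at 1.91, 3.71, 7.23 and 2.35 FPKM in FCS 3d, against 34.1, 30.8, 24.1, 15.4 and 53.2 FPKM in FCS 1d (log2 difference -2.77 ± 0.47, adjusted p = 0.0032). Siglec5, a sialic acid-binding receptor, stood at 10.2, 9.55, 10.3 and 12.4 FPKM in FCS 3d, against 27.00, 41.7, 20.6, 40.6 and 37.7 FPKM in FCS 1d (log2 difference -1.53 ± 0.27, adjusted p = 0.0038). Both calls held whichever library was left out. Cd72 ranged over 6.07 to 10.3 FPKM in FCS 3d, against 23.7 to 116 FPKM in FCS 1d (log2 difference -2.58 ± 0.51, adjusted p = 0.013), a call lost without FCS 3d 1 alone (adjusted p = 0.055). Havcr2 (TIM-3), an inhibitory receptor that binds phosphatidylserine, ranged over 22.5 to 35.6 FPKM in FCS 3d, against 47.7 to 81.7 FPKM in FCS 1d (log2 difference -1.13 ± 0.23, adjusted p = 0.015; lost in 3 of 9 fits, at adjusted p up to 0.07 without FCS 3d 4). Of 36 tested phagocytic and scavenger receptor genes, 1 was higher (Mrc1) and 2 were lower (Olr1 and Havcr2), against 0.444% and 0.640% of all tested genes. The list's median was log2 -0.24, and 0.00 with quantile normalization. The NADPH oxidase subunit Ncf1, outside the naming rule, stood at 226, 258, 208 and 220.3 FPKM in FCS 3d, against 475, 419, 465, 469 and 657 FPKM in FCS 1d (log2 difference -1.11 ± 0.22, adjusted p = 0.012), and its call held whichever library was left out (adjusted p up to 0.049).

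Genes that mark resting microglia showed no common direction. Of 40 tested members of a homeostatic list, 4 were higher (the 3 C1q genes and the transporter Slco2b1) and 1 lower (Siglec5), with a median of log2 0.02. Of all tested genes, 0.444% were higher and 0.640% lower. Slco2b1 stood at 29.8, 37.6, 28.6 and 32.7 FPKM in FCS 3d, against 12.1, 19.2, 16.6, 21.6 and 11.04 FPKM in FCS 1d (log2 difference 0.99 ± 0.24, adjusted p = 0.046; lost in 8 of 9 fits, at adjusted p up to 0.16 without FCS 3d 2). Tmem119, a microglial surface protein, stood at 31.5, 46.2, 43.8 and 41.2 FPKM in FCS 3d, against 70.5, 111, 79.1, 89.8 and 96.1 FPKM in FCS 1d, lower without overlap but not called (log2 difference -1.11 ± 0.42, adjusted p = 0.25, over the alternatives from 0.011 to 0.65). The purinergic receptor P2ry12 averaged 15.6 ± 6.99 FPKM in FCS 3d and 10.02 ± 4.79 FPKM in FCS 1d (SD, n = 4 and 5; log2 difference 0.61 ± 0.49, adjusted p = 0.74). The fractalkine receptor Cx3cr1 averaged 168 ± 65.96 FPKM in FCS 3d and 112 ± 41.4 FPKM in FCS 1d (log2 difference 0.57 ± 0.70, adjusted p = 0.87). Sall1, a transcription factor of microglial identity, averaged 1.56 ± 0.602 FPKM in FCS 3d and 1.77 ± 0.562 FPKM in FCS 1d (log2 difference -0.12 ± 0.30, adjusted p = 0.96). Csf1r, the receptor that keeps microglia alive, averaged 621 ± 51.6 FPKM in FCS 3d and 618 ± 47.3 FPKM in FCS 1d (log2 difference 0.00 ± 0.22, adjusted p = 1). None of 36 tested identity transcription factors was called, with a median of -0.11.

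In the disease-associated list 1 of 34 was lower, Atp6v0d2 (against 0.640% of all tested genes), and none higher, with a median of log2 -0.52 that was -0.36, with no member called, without FCS 1d 5. Spp1 (osteopontin) stood at 4866, 724, 6718 and 509.6 FPKM in FCS 3d, against 17035, 2698, 24487, 2921 and 11114 FPKM in FCS 1d, with overlap (log2 difference -2.13 ± 1.24, adjusted p = 0.57, over the alternatives from 0.0018 to 1.0). Its log2 difference was -3.93 within the libraries with few zeros (FCS 3d 2 and 4, FCS 1d 3, 4 and 5). It was -0.25 within those with many (FCS 3d 1 and 3, FCS 1d 1 and 2). Spp1 was high in replicates 1 and 3 and low in 2 and 4 of both groups, and in TIC 1 to 4 (17898, 1278, 16214 and 883 FPKM). Both differences therefore set unlike replicate numbers against each other. Each FCS 3d library was below the FCS 1d library of the same number. The lipid carrier Apoe averaged 1353 ± 694 FPKM in FCS 3d and 1264 ± 1126 FPKM in FCS 1d (log2 difference 0.31 ± 0.67, adjusted p = 0.95). The lipid-sensing receptor Trem2 averaged 458 ± 119 FPKM in FCS 3d and 455 ± 269 FPKM in FCS 1d (log2 difference 0.14 ± 0.49, adjusted p = 0.97). Gpnmb averaged 2456 ± 265 FPKM in FCS 3d and 4279 ± 2312 FPKM in FCS 1d (log2 difference -0.68 ± 0.36, adjusted p = 0.51), without overlap and not called. The lipoprotein lipase Lpl averaged 282 ± 44.9 FPKM in FCS 3d and 154 ± 58.6 FPKM in FCS 1d (log2 difference 0.92 ± 0.32, adjusted p = 0.2). In lipid synthesis, Scd1, which desaturates fatty acids, was listed at 0, 0.207, 0 and 0 FPKM in FCS 3d, against 2.99, 1.59, 1.56, 1.65 and 1.95 FPKM in FCS 1d (log2 difference -1.47 ± 0.24, adjusted p = 0.0022), and its call held whichever library was left out. It was the only 1 of 20 fatty acid synthesis genes to be called, against 1.08% of all tested genes. With only the 9 samples in the fit, or with the freshly isolated samples left out, 2 members of this list were lower. The related gene Scd2 averaged 31.6 ± 3.75 FPKM in FCS 3d and 69.4 ± 5.92 FPKM in FCS 1d (log2 difference -1.12 ± 0.37, adjusted p = 0.16). Scd2 was lower without overlap and was not called, its adjusted p over the alternatives running from 0.0051 to 0.69. Their regulator Srebf1 averaged 6.12 ± 2.50 FPKM in FCS 3d and 8.41 ± 2.04 FPKM in FCS 1d (log2 difference -0.44 ± 0.26, adjusted p = 0.59). All 3 were higher in TIC, at 13.8 to 25.03 FPKM, 350.0 to 576 FPKM and 37.3 to 61.4 FPKM.

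Other large changes fell outside these groups. S100a6, a calcium-binding protein, stood at 49.1, 53.02, 67.5 and 30.99 FPKM in FCS 3d, against 285, 301, 329.8, 271 and 267 FPKM in FCS 1d (log2 difference -2.56 ± 0.39, adjusted p = 0.0012), with 787 to 1113 FPKM in TIC. It was the only 1 of 19 annexin, S100 and galectin genes to be called, against 1.08% of all tested genes. Pla2g7, which breaks down platelet-activating factor, stood at 64.9, 83.7, 89.9 and 88.5 FPKM in FCS 3d, against 404, 331, 516, 484 and 726 FPKM in FCS 1d (log2 difference -2.54 ± 0.31, adjusted p = 9.6e-05). Slc13a3, a dicarboxylate transporter, stood at 4.52, 6.85, 4.80 and 12.1 FPKM in FCS 3d, against 45.03, 41.9, 55.4, 74.6 and 31.8 FPKM in FCS 1d (log2 difference -2.69 ± 0.37, adjusted p = 0.00052). The groups lay far apart for all 3, and their calls held whichever library was left out. Fam213b ranged over 0 to 8.36 FPKM in FCS 3d, against 23.7 to 51.8 FPKM in FCS 1d (log2 difference -3.25 ± 0.54, adjusted p = 0.003). Ptprn, which encodes a secretory vesicle protein, ranged over 0 to 1.41 FPKM in FCS 3d, against 5.17 to 20.4 FPKM in FCS 1d (log2 difference -2.88 ± 0.41, adjusted p = 0.00052). Both calls also held. The peroxiredoxin Prdx5, the most abundant called gene, ranged over 563 to 1004 FPKM in FCS 3d, against 1509 to 4404 FPKM in FCS 1d (log2 difference -1.66 ± 0.40, adjusted p = 0.043; lost in 7 of 9 fits, at adjusted p up to 0.17 without FCS 3d 1). Sctr, the secretin receptor, ranged over 0 to 0.773 FPKM in FCS 3d, against 2.86 to 37.3 FPKM in FCS 1d (log2 difference -2.83 ± 0.57, adjusted p = 0.015; lost without FCS 3d 1 alone, adjusted p = 0.064).

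On the higher side, Igfbp4, a binding protein of insulin-like growth factors, stood at 18.3, 14.8, 14.1 and 12.96 FPKM in FCS 3d, against 0.882, 0, 0.216, 2.96 and 0.806 FPKM in FCS 1d (log2 difference 3.19 ± 0.55, adjusted p = 0.0032), and its call held whichever library was left out. Gpx3, the secreted glutathione peroxidase, stood at 91.5, 82.5, 27.6 and 74.4 FPKM in FCS 3d, against 2.59, 1.21, 2.22, 8.70 and 12.4 FPKM in FCS 1d (log2 difference 3.66 ± 0.74, adjusted p = 0.015; lost in 3 of 9 fits, at adjusted p up to 0.067 without FCS 3d 2). Both were low in TIC, at 0 to 2.17 FPKM and 0 to 11.1 FPKM. Oplah, which recycles glutathione breakdown products, stood at 30.1, 42.8, 27.1 and 48.1 FPKM in FCS 3d, against 7.63, 7.55, 8.51, 14.3 and 7.84 FPKM in FCS 1d (log2 difference 1.90 ± 0.40, adjusted p = 0.019). Acsbg1, an acyl-CoA synthetase, stood at 33.5, 36.8, 30.4 and 45.5 FPKM in FCS 3d, against 6.41, 4.64, 10.6, 12.1 and 8.13 FPKM in FCS 1d (log2 difference 2.05 ± 0.50, adjusted p = 0.043). Clec2l stood at 32.6, 13.3, 65.2 and 19.6 FPKM in FCS 3d, against 6.67, 3.73, 9.47, 5.86 and 1.71 FPKM in FCS 1d (log2 difference 2.27 ± 0.54, adjusted p = 0.04). Calls of Oplah, Acsbg1 and Clec2l were lost in 4 of 9, 8 of 9 and 8 of 9 fits without 1 library, at adjusted p up to 0.081, 0.13 and 0.15 (without FCS 3d 4, FCS 3d 4 and FCS 3d 3).

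Of the 41 lists, 17 had no called member. They include sterol synthesis and uptake (26 tested, median log2 -0.20), cholesterol efflux (21 tested, -0.31), MHC class I (23 tested, -0.17) and class II (12 tested, -0.24), and eicosanoids (20 tested, -0.25). Cytosolic ribosomal proteins (83 tested) had a median of 0.36, with 77 above 0 (against 43.6% of all tested genes), and oxidative phosphorylation genes (75 tested) 0.07. The sterol synthesis gene Hmgcs1 averaged 4.51 ± 2.65 FPKM in FCS 3d and 5.86 ± 2.18 FPKM in FCS 1d (SD, n = 4 and 5; log2 difference -0.37 ± 0.36, adjusted p = 0.82). Of 25 TGF-beta and BMP genes 2 were lower (against 0.640% of all tested genes) and none higher. Among the 2 was Tgif1, at 5.18 to 11.02 FPKM in FCS 3d, against 15.3 to 35.2 FPKM in FCS 1d (log2 difference -1.19 ± 0.29, adjusted p = 0.046). The Tgif1 call was lost in 8 of 9 fits, at adjusted p up to 0.23 (without FCS 3d 1). Id1, a target of the BMP pathway, averaged 95.8 ± 35.2 FPKM in FCS 3d and 66.97 ± 19.99 FPKM in FCS 1d (log2 difference 0.49 ± 0.68, adjusted p = 0.9). Its relative Id3 averaged 81.5 ± 32.7 FPKM in FCS 3d and 38.8 ± 17.5 FPKM in FCS 1d (log2 difference 1.04 ± 0.51, adjusted p = 0.46). Of 35 immediate early genes 1 was lower (against the same 0.640%), the nuclear receptor Nr4a2. It lay at 0 to 1.40 FPKM in FCS 3d, against 1.49 to 5.77 FPKM in FCS 1d (log2 difference -1.64 ± 0.39, adjusted p = 0.042). Its call was lost in 7 of 9 fits, at adjusted p up to 0.14 (without FCS 3d 4). Of 36 glycolysis and hypoxia genes the enolase Eno2 alone was lower (against the same 0.640%) and none higher. Eno2 lay at 4.45 to 6.48 FPKM in FCS 3d, against 11.2 to 43.3 FPKM in FCS 1d (log2 difference -1.67 ± 0.40, adjusted p = 0.042). Its call was lost in 7 of 9 fits, at adjusted p up to 0.14 (without FCS 3d 1).

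Set beside the serum-free level, the called genes fell into different patterns. Of the 43 genes higher in FCS 3d, the TIC mean on the log2(FPKM + 1) scale was below both FCS means in 27, among them C1qa, C1qb, C1qc, Mrc1, Igfbp4, Gpx3, Top2a and Tk1. It lay between the FCS means in 15, among them Phgdh, Psat1, Cfp and Ube2c, and above both in 1 (Slc7a1). Of the 62 genes lower in FCS 3d, the TIC mean was above both FCS means in 30, among them Ddit3, Ctsk, Mmp12, Il1rn, S100a6 and Scd1. It lay between them in 29, among them Cxcl3, Olr1, Pla2g7, Slc13a3 and Ptprn, and below both in 3, among them Ncf1 and Ppap2b. Some TIC means lean on TIC 5 and 6, which like FCS 1d 5 have high summed FPKM. Ctsk stood at 877 and 880 FPKM in these 2, against 92.7 to 171 FPKM in TIC 1 to 4, while S100a6 showed no such split. The FCS 1d and FCS 3d values chose these genes, so the places are a description and carry no test.

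Transcripts of other cells were scarce. Lists of blood, glial, neuronal, vascular and fibroblast markers, 120 genes in the table, together took 0.265 to 0.298% of FPKM in FCS 3d and 0.184 to 0.388% in FCS 1d. All 7 red blood cell genes, S100a9, Prg2, Ms4a1, Nkg7 and Gzmb were listed at 0 in each of the 9 libraries. Since an exact 0 in these files can be a failed estimate, such zeros do not show absence. Neutrophil and monocyte list sums were 50.8 to 115 FPKM in FCS 3d and 133.9 to 180.0 FPKM in FCS 1d, without overlap, with Mmp9, which activated macrophages also make, at 21.1 to 32.5 FPKM in FCS 3d, against 59.5 to 139 FPKM in FCS 1d. Other members reached higher levels in FCS 3d: S100a8 lay at 5.19 to 50.3 FPKM in FCS 3d, against 6.90 to 24.9 FPKM in FCS 1d, Csf3r at 6.97 to 17.2 FPKM in FCS 3d, against 3.41 to 14.2 FPKM in FCS 1d and Plac8 at 4.64 to 17.2 FPKM in FCS 3d, against 0 to 7.84 FPKM in FCS 1d. Lymphocyte list sums were 126.8 to 149 FPKM in FCS 3d and 159.6 to 414 FPKM in FCS 1d, also without overlap, with Cd4, which rat macrophages also make, at 96.96 to 114 FPKM in FCS 3d, against 112 to 345 FPKM in FCS 1d. Astrocyte and oligodendrocyte sums overlapped, at 738 to 789.9 FPKM and 44.0 to 72.0 FPKM in FCS 3d, against 424 to 1051 FPKM and 41.2 to 61.4 FPKM in FCS 1d. Most of the astrocyte sum was Glul (glutamine synthetase), at 709 to 773 FPKM in FCS 3d, against 402 to 1043 FPKM in FCS 1d, while Gfap and Aqp4 were listed at 0 in all 9 libraries. Endothelial and mural sums were 80.9 to 115.7 FPKM in FCS 3d and 42.6 to 110.6 FPKM in FCS 1d. Esam, a junction protein gene of that list, differed without overlap, at 44.7 to 72.96 FPKM in FCS 3d, against 7.87 to 22.4 FPKM in FCS 1d (log2 difference 1.96 ± 0.52, adjusted p = 0.065). Neuron list sums were 4.46 to 7.81 FPKM in FCS 3d and 11.2 to 51.1 FPKM in FCS 1d, without overlap. Most of that sum was the enolase Eno2, at 4.45 to 6.48 FPKM in FCS 3d and 11.2 to 43.3 FPKM in FCS 1d. The next highest member, Nefl, reached 3.01 FPKM in FCS 1d. Among the tested members of these lists, only Eno2 of the neuron list was called. The part of these cells in the differences above was not tested.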

How the data were processed

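RNA sequencing of panned rat microglia was deposited by the authors as a table of FPKM per gene symbol in 22 samples, of which 4 FCS 3d and 5 FCS 1d samples are compared and 6 TIC samples give a level. Per the labels' protocols, libraries were made by SmartSeq2 and Nextera XT and read as paired ends on a MiSeq. The submitters' processing notes name HISAT2 2.0.3, Cufflinks 2.2.1 and build rn6 without their roles, and which annotation, filters or scaling were applied is not given in the sources used here. Each of the 22 value columns belongs to 1 sample by its title, and 0 columns fell outside.

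Genes reaching 1 FPKM in 3 or more samples were taken to log2(FPKM + 1), with a pseudocount of 1, and fitted in limma 3.58.1 (R 4.3.3) as group means over all 22 samples, with trended and robust moderation. The contrast FCS 3d minus FCS 1d was two-sided and adjusted by the Benjamini-Hochberg method over 9691 genes. The fit was run on simulated data with independent normal residuals, only to check that it recovers seeded changes. That simulation does not copy the outlying library or the division by zeros, so it does not bear on the calls. SE and p-values rest on a spread per gene estimated over all groups of the 22 samples, also those outside the comparison. They therefore do not measure the spread of the FCS 3d and FCS 1d libraries alone, and the spread may in part be technical. An exact permutation test of 1 gene over the 9 samples (126 splits, two-sided) cannot go below p = 0.0159. FPKM carry no read totals, so no counting interval is given.

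The comparison, the gene lists and the lists' members were chosen with earlier results of these data known. Named genes are the 15 largest rises and 15 largest falls among called genes whose groups do not overlap, up to 5 called members of each list with up to 2 going against it, and a set of well-known genes named whatever their result. Some genes that the rule would name are not reported here. Uncalled list members beside these, the called genes Bub1b, Tnfsf15, Ncf1 and Ppap2b, and genes so marked, were named after their values were seen. Replicate numbers recur in both groups. Same-numbered samples deviated from their group means with correlations of 0.22, -0.05, 0.02 and 0.37, and samples of unlike number with -0.27 to 0.19. The numbers were not taken to pair samples. Single genes such as Spp1 and Clec2l did keep a like pattern over replicates 1 to 4 in both groups, so a shared origin of same-numbered samples remains possible. Alternatives changed the pseudocount, the filter, the scaling, the samples in the fit, the moderation and the libraries, and added a replicate block and a term for the division of libraries by tested genes listed at 0 (cut at 803).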

Additional observations from a re-analysis of the deposited data

Results flagged for a closer look

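In 12 of 162 groups of libraries checked, 1 library lay far from the others of its group, where chance alone flags about 1 in 20. The summed FPKM of FCS 1d 5 (672963, or 673000.0 rounded) lay far above the other FCS 1d libraries. The same library was the high one for the proton pump subunit Atp6v0d2 (131.5 FPKM), the secretin receptor Sctr (37.33 FPKM) and Gpnmb (8383 FPKM), and the low one for the proliferation marker Mki67 (1.5 FPKM). FCS 1d 4 was high for Oplah (14.28 FPKM) and for the recombination gene Rad54l (3.879 FPKM, with the other FCS 1d libraries listed at 0), and low for Traf1 (11.86 FPKM). FCS 1d 1 was high for the cystine transporter Slc7a11 (5.794 FPKM), and FCS 1d 2 for the sliding clamp gene Pcna (133.2 FPKM).

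Among the FCS 3d libraries, FCS 3d 2 was the only one with Scd1 above 0 (0.2071 FPKM). FCS 3d 3 was high for the cell cycle inhibitor Cdkn1a (31.89 FPKM).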

How the results depend on the processing

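Counts of called genes moved with most settings. None of the 55 called named genes changed sign under any of 23 settings. Where a gene's groups do not overlap, leaving out libraries or changing the pseudocount, filter or moderation cannot change its sign. The kept signs are therefore no sign of stability under those settings. Against 105 calls (43 higher, 62 lower, 10 of them S phase or mitosis members), a pseudocount of 0.1 gave 62 (23, 39 and 4), and a pseudocount of 5 gave 151, with 81 higher and 26 cell cycle members. Median-of-ratios rescaling gave 174 (74, 100 and 16) and quantile normalization 194 (89, 105 and 18). Fitting only the 9 samples gave 232 (105, 127 and 30), and leaving out the freshly isolated samples 267 (131, 136 and 32). A term for the division by zeros gave 208 (98, 110 and 20), libraries with few zeros alone gave 32 (18, 14 and 6), and libraries with many zeros alone gave 2 (0, 2 and 0). The replicate block, on replicates 1 to 4, gave 317 calls (164, 153 and 36), against 323 (167, 156 and 32) for the same libraries without the block, an alternative chosen after seeing the data, and Spp1 had adjusted p = 0.0018 with the block and 0.34 without it (limma). Not every sample correlated best with its own number. Leaving out 1 library gave 30 to 95 calls, 9 to 45 higher and 21 to 55 lower, with 3 to 12 cell cycle members. The cause was not tested. The other settings stayed within 1.5 times. The 5 named genes that changed sign were all uncalled. With many zeros only, P2ry12 was -0.019 and Csf1r -0.163, and with few zeros only, Sall1 was 0.002. Quantile normalization put Csf1r at -0.014 and Ccl2 at 0.021, and replicates 1 to 4, with or without the block, put Csf1r at -0.014. Without 1 library, Sall1 ran from -0.224 to 0.065, Csf1r from -0.038 to 0.049, Trem2 from -0.080 to 0.435 and Ccl2 from -0.355 to 0.141. Depth is unknown from FPKM, so no detection limit can be given for genes listed at 0.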
